A study of Mus musculus with 4 samples.

Results

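Imprinted genes are transcribed mainly or only from the copy inherited from 1 parent. The choice is set by DNA methylation laid down in the germ line, at sperm-specific or oocyte-specific regions, and kept after fertilization. In the mouse the oocyte acquires its imprints while it grows, through the methyltransferase DNMT3A and its cofactor DNMT3L, so that the chromosomes of the grown oocyte carry the maternal pattern. Many genes under this control act in growth of the embryo, in the placenta or in the brain. The genes described here are 40 imprinted mouse genes chosen by name from general knowledge of imprinting and not by their values. Earlier results of these data were known when the genes were chosen. All 40 were among the 26631 rows of the table. Of these, 26 are known as paternally expressed and 14 as maternally expressed in at least some tissues.

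The RNA came from denuded oocytes, which are oocytes freed of their cumulus cells, of wild type C57BL/6 mice at postnatal day 24. They were cultured with HDACi 4b, a small molecule that inhibits the deacetylases HDAC1 and HDAC3, or with its solvent DMSO (control), and each group had 2 libraries (n = 2). The comparison asks whether the transcripts of the oocyte itself differ when the inhibitor acts on it without cumulus cells. According to the study's methods the libraries held pooled oocytes, and nothing in the labels says whether each library had its own animals or culture, so that p-values reflect only the spread among these libraries, which may be technical. Alleles were not distinguished and methylation was not measured, so the data give the total level of each gene.

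The libraries held 13478189 to 14903547 reads, and 9015 to 10027 genes reached 1 RPKM (reads normalized for exon length and library total). All 10 oocyte markers were present, with summed levels of 7616 to 10154 RPKM. Of 11 granulosa and cumulus markers in the table, 2 reached 1 RPKM, *Cyp19a1* and *Nr5a2*, and *Foxl2* and *Ptx3* had at most 1 read in any library. Of 8 theca and stroma markers, 0 reached 1 RPKM, and of 7 immune and blood markers 5 did, with sums of 29.3 and 17.5 RPKM after DMSO and 49.0 and 12.8 RPKM after HDACi 4b. Control replicate 2 and HDACi 4b replicate 1 stood apart from the others in transcripts of cells other than the oocyte, and these values are given with the members they move with. Control replicate 1 was also raised in microglia and macrophage markers. Fewer cells of a type and less RNA per cell cannot be told apart in pooled samples. Where a pair of values is given for a group, replicate 1 stands before replicate 2.

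Promoter sequences are shown for 4 members to let the regulatory sequence be read beside the levels. They are the 3 members with the highest mean levels, *Phlda2*, *Nnat* and *Mest*, and *Nap1l5*, an intronless gene whose start lies in an oocyte-methylated region and whose level varied between libraries. Each is the RefSeq window of 250 bases before to 50 bases after a start site (build GRCm38.p6), printed 5′ to 3′ on the strand of the gene. The letters TGCCGC, the core of the motif bound by the imprint-keeping zinc finger protein ZFP57, were searched on both strands, and capitals mark each match (GCGGCA where the match is on the opposite strand). The *Nnat* window lies at chr2:157559828-157560127 on the plus strand and held 1 match and 17 CpG dinucleotides.
Nnat: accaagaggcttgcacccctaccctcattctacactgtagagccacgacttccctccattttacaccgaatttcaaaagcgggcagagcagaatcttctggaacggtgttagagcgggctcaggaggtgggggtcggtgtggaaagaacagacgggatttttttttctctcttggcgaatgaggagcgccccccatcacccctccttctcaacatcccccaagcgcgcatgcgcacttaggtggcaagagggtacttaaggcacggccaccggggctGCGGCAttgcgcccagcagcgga
The *Nap1l5* window lies at chr6:58907077-58907376 on the minus strand and held 2 matches and 17 CpG dinucleotides.
Nap1l5: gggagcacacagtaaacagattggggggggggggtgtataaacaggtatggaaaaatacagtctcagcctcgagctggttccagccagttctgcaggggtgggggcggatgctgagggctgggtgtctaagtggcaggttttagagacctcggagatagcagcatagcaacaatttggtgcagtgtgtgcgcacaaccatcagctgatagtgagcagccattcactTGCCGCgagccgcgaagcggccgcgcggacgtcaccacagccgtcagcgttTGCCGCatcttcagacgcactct
The *Mest* window lies at chr6:30737800-30738099 on the plus strand, inside the annotated span of the gene, and held 2 matches and 17 CpG dinucleotides. For *Mest* only a window holding the letters was taken, so a match there was fixed by that choice.
Mest: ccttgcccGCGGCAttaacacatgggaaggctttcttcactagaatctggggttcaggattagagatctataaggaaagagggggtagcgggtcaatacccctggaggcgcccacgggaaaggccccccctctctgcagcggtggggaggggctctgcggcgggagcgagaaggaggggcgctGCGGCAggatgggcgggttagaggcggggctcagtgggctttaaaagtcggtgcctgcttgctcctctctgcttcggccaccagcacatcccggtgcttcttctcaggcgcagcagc
The *Phlda2* window lies at chr7:143502475-143502774 on the minus strand, inside the annotated span of the gene, and held 0 matches and 26 CpG dinucleotides. *Phlda2* is controlled by a methylated region elsewhere in its cluster.
Phlda2: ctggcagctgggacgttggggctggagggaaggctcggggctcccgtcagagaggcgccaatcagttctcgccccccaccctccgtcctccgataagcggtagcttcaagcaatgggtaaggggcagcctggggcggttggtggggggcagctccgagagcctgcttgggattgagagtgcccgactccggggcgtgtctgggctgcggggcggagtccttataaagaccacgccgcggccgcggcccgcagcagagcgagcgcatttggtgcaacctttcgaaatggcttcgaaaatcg
A window was found for 32 members, which had 47 windows in all. Of these 47 windows, 13 (27.7%) held the letters, against 3813 of all 32851 windows (11.6%), and the median number of CpG dinucleotides was 13 against 7. Of the 15 members whose promoter is known to lie in an oocyte-methylated region, 11 had a window and 6 of these held a match. A match is a description of the letters only.

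The imprinted genes lay at levels near those of the table as a whole. None of the 15 that were high enough to test was called different between HDACi 4b and control after adjustment over all genes tested. A mean level of 1 RPKM was reached by 15 members (37.5%), against 35.5% of all rows. Another 13 members lay between 0.1 and 1 RPKM and 12 lay under 0.1 RPKM. The median level of the 40 members was 0.335 RPKM, against 0.308 RPKM over all rows. Among the 26 paternally expressed members the median was 0.277 RPKM and 8 reached 1 RPKM, and among the 14 maternally expressed members the median was 0.937 RPKM and 7 reached it. The 8 members at loci methylated in sperm had a median of 0.0374 RPKM, and the 15 members with an oocyte-methylated promoter had a median of 0.799 RPKM. These medians are descriptions without a test.

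**Figure D1:**
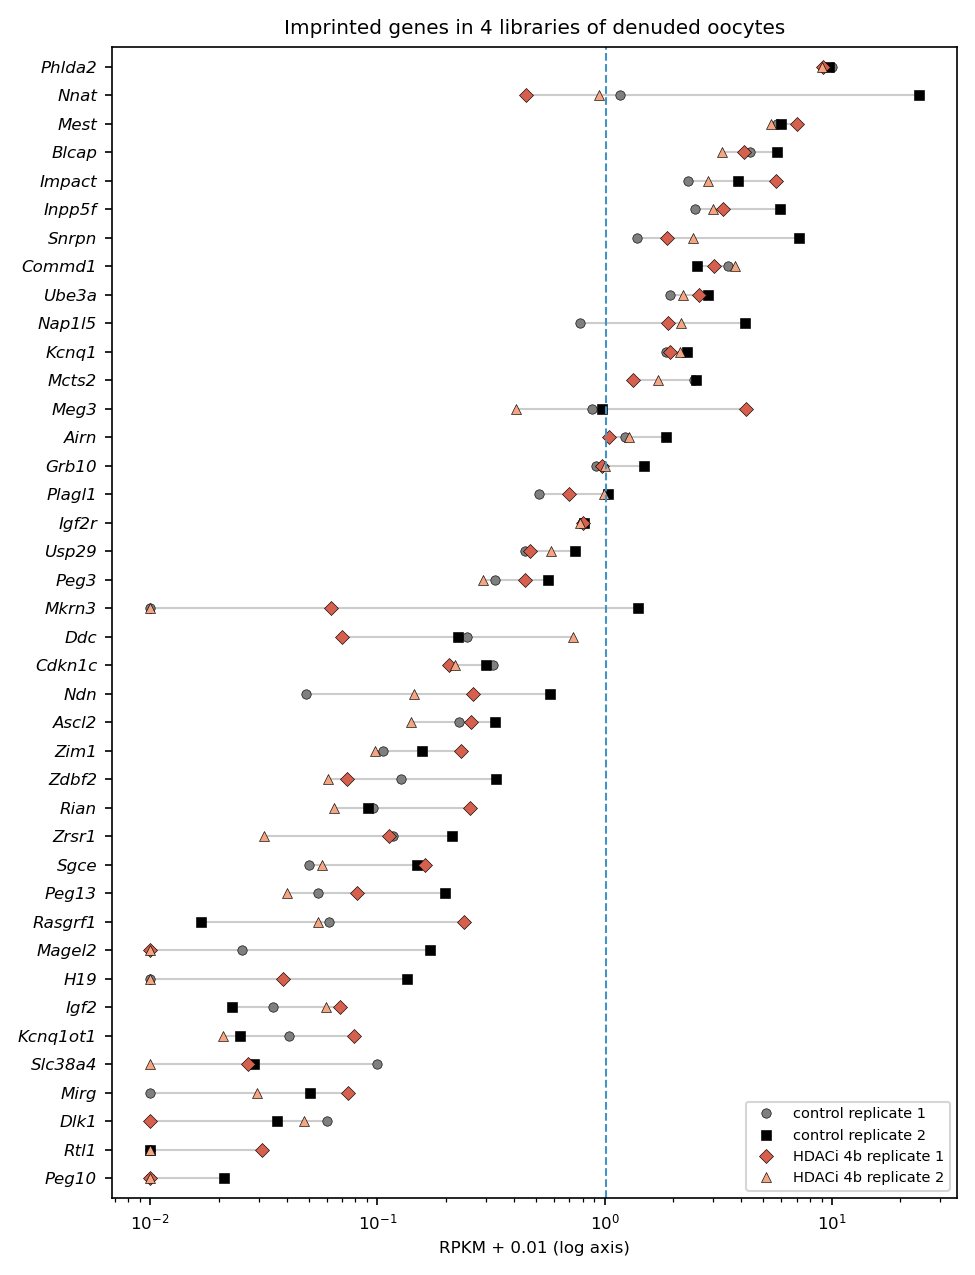
Level of each of the 40 imprinted genes in RPKM + 0.01 on a log axis, with 1 point per library and a grey line from the lowest to the highest library; the dashed line marks 1 RPKM. *Phlda2*, *Mest* and *Nnat* had the highest means, but the level of *Nnat* rested on control replicate 2, at 24.1 RPKM.

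The 15 members at 1 RPKM or above were tested with limma over all 9461 such genes, with Benjamini-Hochberg adjustment. Of these, 0 were called higher and 0 lower, and the same held for all genes tested (0.0% called higher and 0.0% called lower). The adjusted p was 1.0 for each of the 15. At an unadjusted p under 0.05 by limma, 1 member was lower, *Nnat*, and 0 were higher, against 1.4% of all genes lower and 1.44% higher. *Nnat* and *Grb10* entered the test only through control replicate 2, without which 13 members reached 1 RPKM. *Meg3* entered only through HDACi 4b replicate 1, without which 14 did. With limma-voom on recovered reads 0 genes were called as well. An exact permutation test of 2 against 2 libraries cannot give a p below 0.333, so none was used.

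A p that misses the threshold does not show equal levels, so the 95% intervals of the fold were counted. Folds are of HDACi 4b over control and rest on log2(RPKM + 0.1), which understates the change of low genes. The interval lay within 2-fold in either direction for 8 of the 15 tested members, *Mest*, *Phlda2*, *Ube3a*, *Kcnq1*, *Blcap*, *Grb10*, *Commd1* and *Inpp5f*, against 81.2% of all genes tested. This count was 6 of 7 for maternally expressed and 2 of 8 for paternally expressed members. The median log2 fold change was -0.05 over the 15 and -0.00 over all genes tested. It was -0.26 over the 8 paternally and 0.04 over the 7 maternally expressed members, and 7 of the 15 values were positive and 8 negative.

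**Figure D2:**
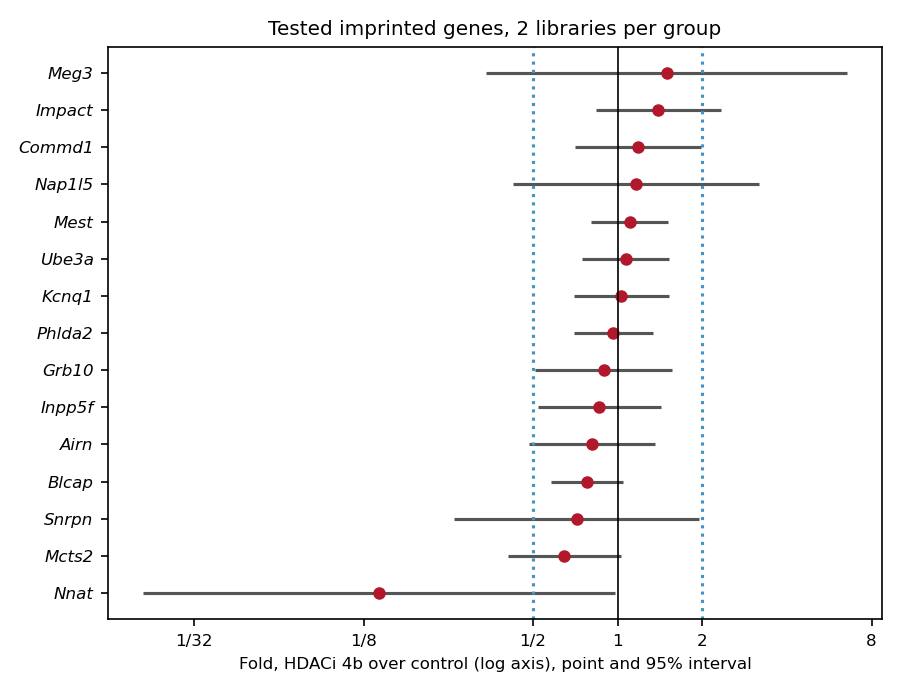
Fold of HDACi 4b over control on a log axis for the 15 tested imprinted genes, as the fitted value (point) with its 95% interval (line); dotted lines mark 2-fold in either direction. *Nnat* at a fold of 0.142, *Meg3*, *Snrpn* and *Nap1l5* had the widest intervals.

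After scaling, both HDACi 4b libraries lay below both controls for 3 tested members, *Nnat*, *Blcap* and *Mcts2*, against 14.5% of all genes tested. They lay above both controls for 0 members, against 13.6% of all genes. Of the 25 members below 1 RPKM, 4 (*Magel2*, *Cdkn1c*, *Zrsr1* and *Zdbf2*) were lower without overlap and 1 (*Igf2*) was higher, against 11.2% lower and 10.6% higher of all rows below 1 RPKM. With the filter removed, 0 of these 25 had an unadjusted p under 0.05 by limma, against 3.15% of those rows.

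Several members were high in 1 library of the 4. A member was counted as standing apart in a library if its scaled level there was over 2-fold above each of the other 3, among the 32 members with at least 20 reads in all, a rule set after the values were seen. Control replicate 2 stood apart for 5 members, *Nnat*, *Mkrn3*, *Snrpn*, *Zdbf2* and *Peg13*, against 2.89% of the 15685 rows with as many reads. All 5 are paternally expressed, as are 20 of the 32. *Ndn* in control replicate 2, at 1.98-fold above the next library, lay just under the limit. So did *Kcnq1ot1*, paternally expressed with an oocyte-methylated promoter, in HDACi 4b replicate 1 at 1.97-fold. HDACi 4b replicate 1 stood apart for 3 members, *Meg3*, *Rian* and *Rasgrf1*, against 2.97% of rows. These are the 3 of the 32 that were listed here as lying at loci methylated in sperm. HDACi 4b replicate 2 stood apart for 1 member, *Ddc*, against 0.395% of rows, and control replicate 1 for 0, against 0.236%. Of all 40 members, 18 had their highest scaled level in control replicate 2, against 26.1% of all rows.

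Markers of brain cells moved with these libraries. They were listed after the values were seen and carry no test. Of 12 markers of developing neurons, 10 stood apart in control replicate 2. The summed level of the 12 was 16.1 and 132 RPKM in the control libraries and 12.5 and 16.4 RPKM in the HDACi 4b libraries. *Tuba1a* gave 73.6 RPKM of the sum in control replicate 2. *Tubb3* and *Elavl3* did not stand apart there. *Tubb3* was at 10.6 and 11.7 RPKM after DMSO and 8.15 and 9.16 RPKM after HDACi 4b, most of the sum in every library but control replicate 2. *Sox11*, a transcription factor of newborn neurons, was at 0.264 and 9.78 RPKM after DMSO and at 0.153 and 0.350 RPKM after HDACi 4b. Only *Nefm* in control replicate 1 had 0 reads among these 12. Of 11 markers of mature brain and myelin, 8 stood apart in HDACi 4b replicate 1. Their sums were 2.92 and 1.19 RPKM after DMSO and 11.6 and 1.67 RPKM after HDACi 4b, over all 11. *Rbfox3*, *Camk2a* and *Aqp4* did not stand apart there, and *Aqp4* was highest in HDACi 4b replicate 2. Only 1 of the 11, *Mog*, reached a mean of 1 RPKM. *Mag*, *Camk2a* and *Gabra6* had 0 reads in control replicate 2, and *Gabra6* also in HDACi 4b replicate 2. Of 10 microglia and macrophage markers, 4 stood apart in HDACi 4b replicate 1, and none was at 0 reads. Their sums were 153 and 77.9 RPKM after DMSO and 301 and 70.6 RPKM after HDACi 4b. *Cd14*, an immune marker outside these 10, was not high in HDACi 4b replicate 1. It was at 1.98 and 2.50 RPKM after DMSO and 1.15 and 1.04 RPKM after HDACi 4b. The part of these transcripts in the levels of the imprinted genes was not tested.

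**Figure D3:**
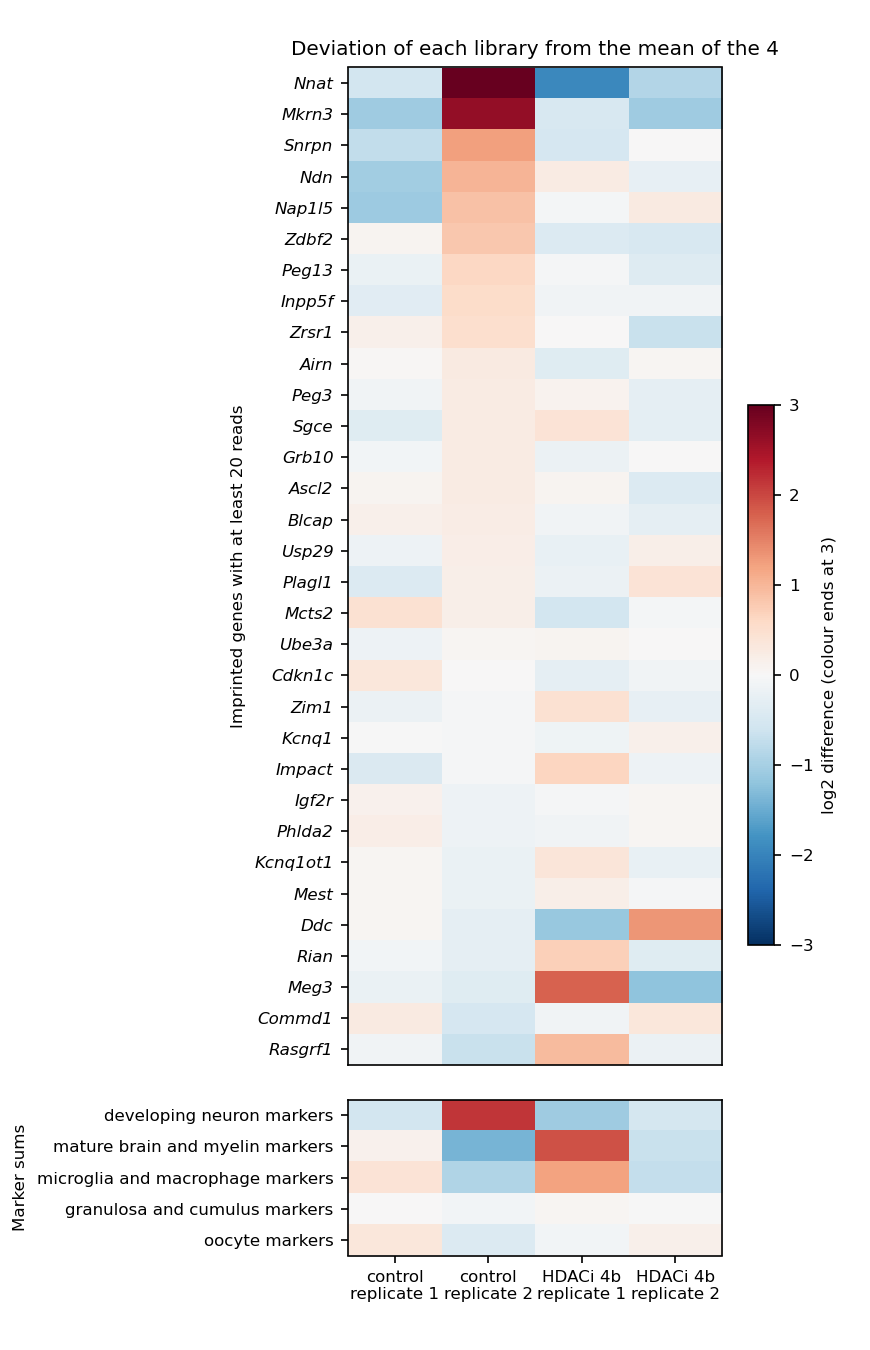
Colour gives the log2 difference of the scaled level in each library (columns) from the mean of the 4 libraries, for the 32 imprinted genes with at least 20 reads (upper block) and for summed markers of cell types (lower block). *Nnat*, *Mkrn3* and *Snrpn* are highest in control replicate 2 as are the developing neuron markers. *Meg3*, *Rian* and *Rasgrf1* are highest in HDACi 4b replicate 1. So are the markers of mature brain and myelin and those of microglia and macrophages.

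*Nnat* and *Blcap* share a locus on chromosome 2. *Nnat* encodes neuronatin, a small membrane protein best known from neurons and endocrine cells, and lies at chr2:157560078-157562522 on the plus strand within the span of *Blcap* (chr2:157556362-157571274, minus strand). Coordinates here and below are those of GENCODE M21 on GRCm38. *Nnat* was at 1.16 and 24.1 RPKM in control replicates 1 and 2 and at 0.440 and 0.931 RPKM in HDACi 4b replicates 1 and 2, from 30, 593, 12 and 24 reads. Control replicate 2 was far above the other 3 libraries, and both HDACi 4b libraries lay below control replicate 1. The fitted fold was 0.142 (95% interval 0.0206 to 0.982, limma adjusted p = 1.0). Without control replicate 2 the log2 fold change was -0.85, against -2.81 with all libraries, and without control replicate 1 it was -4.78. Adjusted p ranged from 0.259 to 1.0 over the alternative settings. *Blcap*, which is maternally expressed in brain, was at 4.35 and 5.73 RPKM after DMSO and at 4.10 and 3.29 RPKM after HDACi 4b. The groups of *Blcap* did not overlap, and the fold was 0.776 (0.579 to 1.04, limma adjusted p = 1.0). Since the strand setting of the counting is not given in the sources used here, reads of such overlapping genes cannot be told apart.

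The cluster on chromosome 7 whose human counterpart is affected in Prader-Willi and Angelman syndromes holds 5 members. *Snrpn* (chr7:59982495-60140219, minus strand) encodes the splicing protein SmN of brain. It was at 1.38 and 7.18 RPKM after DMSO and at 1.86 and 2.43 RPKM after HDACi 4b, with control replicate 2 highest and control replicate 1 lowest. Its fold was 0.715 (0.262 to 1.95), and without control replicate 2 the sign turned, from -0.48 to 0.50 on the log2 scale. *Ube3a*, a ubiquitin ligase that is maternally expressed in neurons and lies at chr7:59228750-59311536, was steadier, at 1.93 and 2.83 RPKM after DMSO and 2.58 and 2.21 RPKM after HDACi 4b. Its groups overlapped, and the fold was 1.07 (0.748 to 1.52).

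The other 3 members of this cluster lay under 1 RPKM, and their highest counts were again in control replicate 2. *Mkrn3*, which encodes a ring finger protein that delays puberty in humans, had 0 and 48 reads after DMSO and 2 and 0 reads after HDACi 4b. *Ndn*, the gene of the neuronal growth regulator necdin, had 2 and 28 reads after DMSO and 14 and 7 reads after HDACi 4b. *Magel2*, of the MAGE family of ubiquitin ligase partners, had 1 and 10 reads after DMSO and 0 in each library after HDACi 4b, where 3 reads would be 0.0435 to 0.0481 RPKM over the libraries. The neighbouring imprinted gene *Peg12*, not among the 40, had 0 and 37 reads after DMSO and 1 and 0 reads after HDACi 4b. In each of these 4 genes control replicate 2 had the highest count, and the other control had at most 2 reads.

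The *Kcnq1* cluster at the distal end of chromosome 7 had the member with the highest mean, *Phlda2* (chr7:143501545-143503150, minus strand), a maternally expressed gene that restrains growth of the placenta. It was at 9.97 and 9.73 RPKM after DMSO and at 9.10 and 9.05 RPKM after HDACi 4b, and after scaling the groups overlapped. Its fold was 0.967 (0.702 to 1.33). *Kcnq1*, which encodes a potassium channel and spans chr7:143106362-143427042, was at 1.85 and 2.30 RPKM after DMSO and 1.93 and 2.13 RPKM after HDACi 4b, with a fold of 1.03 (0.700 to 1.52). The 4 values of each of these genes lay close together.

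*Kcnq1ot1*, the long noncoding RNA that silences the cluster in cis on the paternal chromosome, lies inside *Kcnq1* on the opposite strand and was nearly absent. It was at 0.0310 and 0.0149 RPKM after DMSO and at 0.0692 and 0.0109 RPKM after HDACi 4b. *Cdkn1c*, an inhibitor of cyclin-dependent kinases, had 9 and 8 reads after DMSO and 6 in each library after HDACi 4b. *Ascl2*, a transcription factor of the trophoblast, had 5 and 7 reads after DMSO and 6 and 3 after HDACi 4b. Differences of a few reads are not detectable at this depth. At the neighbouring locus methylated in sperm, the long noncoding RNA *H19* had at most 4 reads in any library and the fetal growth factor gene *Igf2* at most 5.

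*Igf2r* and *Airn* overlap on chromosome 17. *Igf2r* (chr17:12682406-12769664, minus strand), the receptor that clears the growth factor IGF2, varied little, at 0.787 and 0.802 RPKM after DMSO and 0.789 and 0.767 RPKM after HDACi 4b. It lay just under the limit for the test. *Airn* (chr17:12741311-12860136, plus strand), the noncoding RNA that silences *Igf2r* on the paternal chromosome and overlaps its start, was at 1.22 and 1.84 RPKM after DMSO and at 1.03 and 1.27 RPKM after HDACi 4b. Its groups overlapped, with a fold of 0.811 (0.484 to 1.36).

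On chromosome 6, *Mest* (chr6:30723547-30748465, plus strand), a paternally expressed gene for a hydrolase-like protein, was the steadiest of the paternally expressed members that were tested. It was at 5.72 and 5.94 RPKM after DMSO and at 6.99 and 5.40 RPKM after HDACi 4b. The fold was 1.10 (0.806 to 1.51) and the groups overlapped. *Copg2*, which overlaps the 3′ end of *Mest* on the opposite strand and is not among the 40, was at 0.801 and 2.33 RPKM after DMSO and 1.01 and 0.928 RPKM after HDACi 4b, so the high library of *Copg2* was not high for *Mest*. *Peg10*, a retrotransposon-derived gene needed for the placenta, had 1 read in all, in control replicate 2. Its neighbour *Sgce*, which encodes epsilon-sarcoglycan, had 6 and 20 reads after DMSO and 24 and 7 after HDACi 4b.

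*Nap1l5*, *Mcts2*, *Zrsr1* and *Inpp5f* belong to the paternally expressed genes found within or as part of other genes. *Nap1l5* (chr6:58905233-58907076, minus strand), a relative of the nucleosome assembly proteins, lies inside *Herc3*. It was at 0.767 and 4.14 RPKM after DMSO and at 1.89 and 2.16 RPKM after HDACi 4b, so the control libraries held both the lowest and the highest value. The fold was 1.16 (0.426 to 3.17), and without control replicate 1 the log2 fold change turned from 0.22 to -0.77. *Herc3* was at 0.875 and 1.48 RPKM after DMSO and 1.43 and 1.27 RPKM after HDACi 4b.

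*Mcts2* (chr2:152687035-152687946, plus strand), a retrocopy of a translation factor gene, lies inside *H13*, a signal peptide peptidase. It was at 2.47 and 2.51 RPKM after DMSO and at 1.32 and 1.70 RPKM after HDACi 4b, from 32, 31, 18 and 22 reads. The groups did not overlap, with a fold of 0.646 (0.408 to 1.02, limma adjusted p = 1.0). *H13* was at 3.64 and 3.23 RPKM after DMSO and 2.84 and 3.64 RPKM after HDACi 4b and overlapped.

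*Inpp5f* (chr7:128611328-128696425, plus strand) encodes an inositol phosphatase, and only a short isoform from an internal start is known as imprinted in brain, which the gene level cannot separate. It was at 2.50 and 5.89 RPKM after DMSO and 3.30 and 2.99 RPKM after HDACi 4b, highest in control replicate 2. The fold was 0.861 (0.520 to 1.43), and without control replicate 2 the log2 change turned from -0.22 to 0.22. *Zrsr1*, a retrocopy related to a splicing factor, had 5 and 9 reads after DMSO and 5 and 1 after HDACi 4b. Its host *Commd1* (chr11:22896136-22982382, minus strand), which acts in copper handling, was at 3.47 and 2.54 RPKM after DMSO and 3.01 and 3.74 RPKM after HDACi 4b. The fold of *Commd1* was 1.18 (0.705 to 1.97), and without control replicate 2 it turned to -0.14 on the log2 scale.

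**Figure D4:**
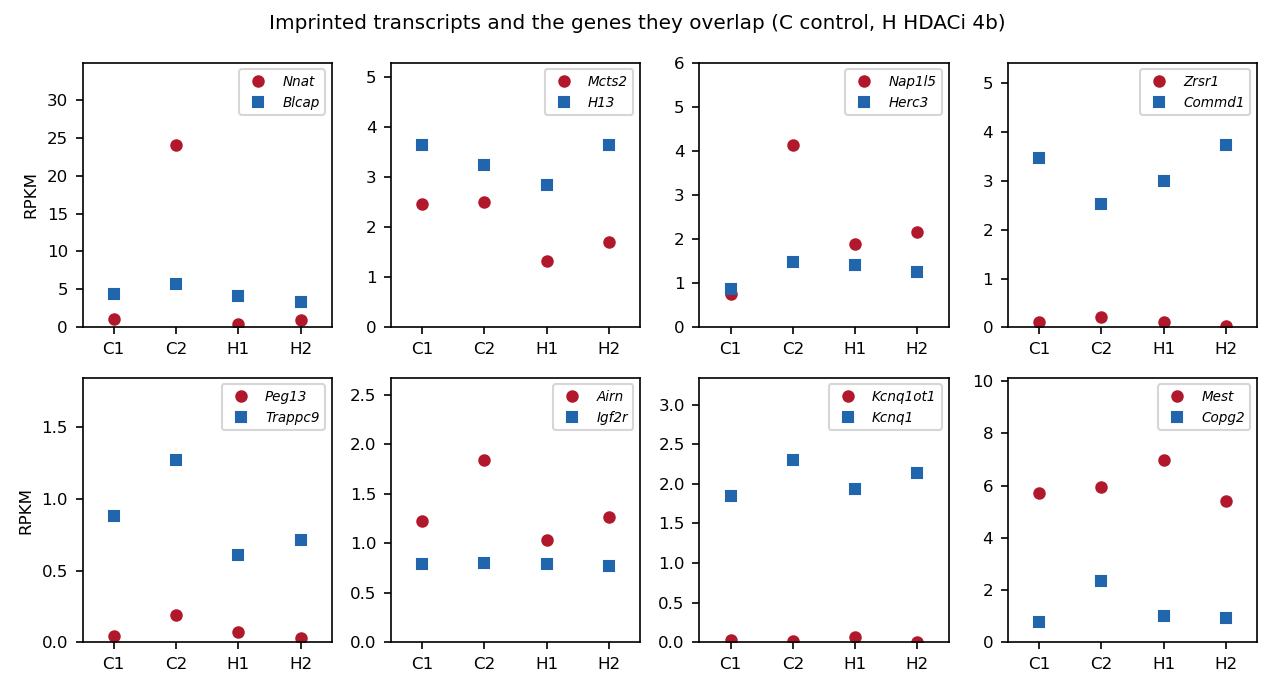
RPKM from 0 upward of 8 imprinted transcripts (red circles) and the genes whose span they overlap (blue squares) in control (C1, C2) and HDACi 4b (H1, H2) libraries. *Nnat* and *Nap1l5* varied over the libraries more than *Blcap* and *Herc3* did, and *Zrsr1*, *Peg13* and *Kcnq1ot1* lay near 0 inside hosts at 0.612 RPKM or more.

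*Impact*, which restrains the stress kinase GCN2 and lies on chromosome 18, was at 2.31 and 3.87 RPKM after DMSO and 5.65 and 2.85 RPKM after HDACi 4b. Its groups overlapped, and the fold was 1.40 (0.836 to 2.33, limma adjusted p = 1.0). *Grb10* (chr11:11930508-12038683, minus strand), an adaptor that dampens insulin signalling, was at 0.910 and 1.49 RPKM after DMSO and 0.967 and 0.992 RPKM after HDACi 4b, with a fold of 0.892 (0.510 to 1.56). The gene next to it, *Ddc*, for the decarboxylase that makes dopamine and serotonin, had 15 and 13 reads after DMSO and 4 and 45 after HDACi 4b. The HDACi 4b libraries thus held both the lowest and the highest value of *Ddc*.

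At the *Dlk1-Dio3* locus on chromosome 12, which is methylated in sperm and carries maternally expressed noncoding RNAs, a single library stood out. *Meg3* (chr12:109541001-109571726, plus strand) was at 0.868 and 0.960 RPKM after DMSO and at 4.17 and 0.396 RPKM after HDACi 4b, from 222, 234, 1123 and 101 reads. The HDACi 4b libraries lay on either side of the controls, with a fold of 1.49 (0.341 to 6.53). Without HDACi 4b replicate 1 the log2 fold change turned from 0.58 to -0.91. *Rian*, the next noncoding RNA of the same strand, had 22 and 20 reads after DMSO and 67 and 14 after HDACi 4b, and was also highest in HDACi 4b replicate 1. *Mirg* had 0 and 4 reads after DMSO and 7 and 2 after HDACi 4b. The paternally expressed genes of the locus had too few reads to compare. *Dlk1*, a ligand-like membrane protein, had 4 and 2 reads after DMSO and 0 and 3 after HDACi 4b, and *Rtl1*, a retrotransposon-derived gene of the placenta, had 2 reads in HDACi 4b replicate 1 and 0 elsewhere.

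*Rasgrf1*, an exchange factor for Ras known from neurons, is the third locus listed here as methylated in sperm. It had 8 and 1 reads after DMSO and 38 and 7 after HDACi 4b. As for *Meg3* and *Rian*, the high library was the one with the most transcripts of mature brain and myelin. That library also had the most transcripts of microglia and macrophages. The part of either in these levels was not tested.

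*Peg3*, *Usp29* and *Zim1* form a cluster on the proximal part of chromosome 7 whose promoter region is methylated in the oocyte. *Peg3*, a zinc finger protein, was at 0.318 and 0.551 RPKM after DMSO and 0.438 and 0.282 RPKM after HDACi 4b. *Usp29*, named for a ubiquitin protease domain and transcribed from the same region in the other direction, was at 0.434 and 0.731 RPKM after DMSO and 0.460 and 0.569 RPKM after HDACi 4b. Both were highest in control replicate 2 and the groups overlapped. *Zim1*, a zinc finger gene expressed from the maternal copy, had 11 and 16 reads after DMSO and 27 and 10 after HDACi 4b.

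Of the remaining members, *Plagl1*, a zinc finger transcription factor, was the highest, at 0.506 and 1.02 RPKM after DMSO and 0.687 and 0.980 RPKM after HDACi 4b. *Zdbf2* had 21 and 55 reads after DMSO and 12 and 9 after HDACi 4b, so that the groups did not overlap. *Peg13*, a noncoding RNA within *Trappc9*, had 3 and 12 reads after DMSO and 5 and 2 after HDACi 4b, while *Trappc9* was at 0.878 and 1.27 RPKM after DMSO and 0.612 and 0.714 RPKM after HDACi 4b. *Slc38a4*, an amino acid transporter, had 5 and 1 reads after DMSO and 1 and 0 after HDACi 4b.

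The genes that set and keep imprints contrasted with the imprinted genes in level. Of 20 listed, 19 were in the table and 17 were tested. Their median level was 9.84 RPKM. Of the 17, 0 were called by limma, 8 values were positive and 9 negative, the median log2 fold change was -0.01, and 16 of 17 intervals lay within 2-fold. *Dppa3*, which protects the maternal genome from demethylation after fertilization, was at 1024 and 1047 RPKM after DMSO and 1092 and 1320 RPKM after HDACi 4b. *Zfp57*, whose motif was searched above, was at 196 and 191 RPKM after DMSO and 216 and 220 RPKM after HDACi 4b, with a fold of 1.18 (0.805 to 1.74). *Nlrp2*, an oocyte protein whose loss disturbs imprints, had the smallest limma p of the list (adjusted p = 1.0) and was at 69.8 and 74.7 RPKM after DMSO and 82.6 and 81.7 RPKM after HDACi 4b.

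Of the enzymes, the maintenance methyltransferase *Dnmt1* was at 71.2 and 68.5 RPKM after DMSO and 62.2 and 79.3 RPKM after HDACi 4b. *Dnmt3l* was at 5.30 and 7.35 RPKM after DMSO and 4.94 and 5.68 RPKM after HDACi 4b, and *Dnmt3a* was at 2.88 and 3.54 RPKM after DMSO and 2.83 and 3.09 RPKM after HDACi 4b. *Kdm1b*, the histone demethylase needed for methylation at some maternal imprints, was at 6.70 and 12.1 RPKM after DMSO and 10.8 and 9.76 RPKM after HDACi 4b. After scaling the groups overlapped for *Dnmt1*, *Dnmt3l* and *Dnmt3a*, and both HDACi 4b libraries lay above both controls for *Kdm1b*, as for 13.6% of all genes tested.

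**Figure D5:**
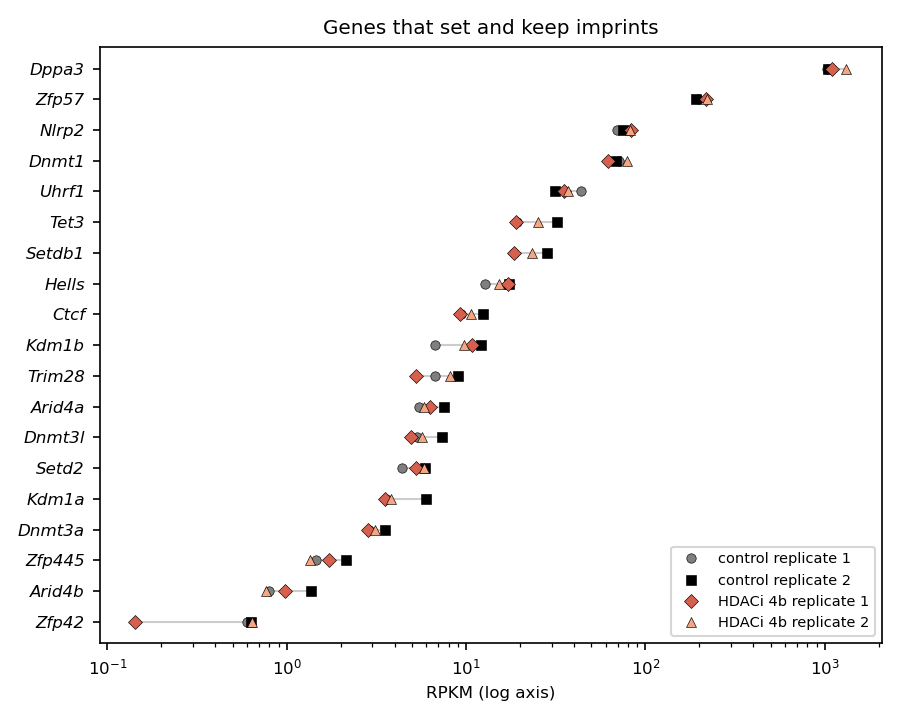
Level in RPKM on a log axis of the 19 measured genes that set or keep imprints, with 1 point per library and a grey line from the lowest to the highest. *Dppa3* lay at 1024 RPKM or more in every library, and HDACi 4b and control points were mixed for most genes.

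Among 35 further imprinted genes, 34 were in the table, 7 were tested and 0 were called by limma, with a median log2 fold change of 0.03. *Nap1l4*, a nucleosome assembly protein gene beside *Phlda2*, had the smallest limma p of this list (adjusted p = 1.0). It was at 5.58 and 6.98 RPKM after DMSO and 10.1 and 6.70 RPKM after HDACi 4b, with a fold of 1.38 (0.988 to 1.92). Of 8 genes whose imprint in the mouse rests on histone H3 lysine methylation from the oocyte and not on DNA methylation, *Slc38a4* included, 0 reached 1 RPKM.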

How the data were processed

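The authors deposited 1 table of RPKM values with 26631 rows and 1 column per library. Bowtie 0.12.2 and the build mm8 are named in the submitters' processing notes. How reads were counted, and whether by strand, is not given in the sources used here. Groups came from the labels, which name denuded oocytes while an extraction note speaks of ovaries. Whole reads were recovered from the RPKM values (tolerance 0.01 reads) with exon lengths of GENCODE M21 for 22641 rows and from ratios between libraries for 3990, among them 8 members (*H19*, *Igf2r*, *Airn*, *Kcnq1ot1*, *Zrsr1*, *Impact*, *Mcts2* and *Slc38a4*). Reads from ratios are fixed only up to a common factor. At the recovered depth 3 reads were 0.201 to 0.223 CPM, and counts cover counting error only. Coordinates were matched by gene name.

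Values were divided by trimmed mean factors (0.911, 1.15, 1.03 and 0.925 for control 1 and 2 and HDACi 4b 1 and 2) and tested on log2(RPKM + 0.1) with limma 3.58.1 in R 4.3.3, with an intensity trend, no covariate, two-sided, Benjamini-Hochberg adjustment at 0.05 over the 9461 genes whose mean reached 1 RPKM (6.44 degrees of freedom). Levels are given as deposited. Named with values were the tested members, members with a defined role in a locus, partner genes and, for other lists, the 2 most read tested genes and that of smallest p. Outside this rule, *Dnmt1*, *Dnmt3l*, *Dnmt3a*, *Kdm1b*, *Copg2*, *Peg12*, *Gnas*, *Nespas*, *Cd81*, *Smoc1*, *Jade1* and the markers were named after their values were seen. The members and lists were chosen with earlier results of these data known, and the brain cell markers after the values were seen. An item among those markers is not reported here. Alternatives were other scalings, pseudocounts, filters and tests, a replicate block and leaving out each library.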

Additional observations from a re-analysis of the deposited data

How the results depend on the processing

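No imprinted gene was called under any of the 17 alternative fits. The median log2 fold change of the tested members, -0.05, turned to 0.0052 without control replicate 2 and was -0.33 without control replicate 1. Without HDACi 4b replicate 2, 1 gene was called higher (*Ighd2-7*) and 4 lower (*Gm24975*, *Krt18*, *Calcoco2* and *Gm22107*), and 0 were called without any other library. At an unadjusted p under 0.05, 57 genes were higher and 135 lower without scaling beyond RPKM, against 136 and 132 with it. The count of imprinted genes with an interval within 2-fold, 8 of 15, was 5 without that scaling, 2 of 3 at a mean of at least 5 RPKM, 6, 9 and 11 at pseudocounts of 0.01, 0.5 and 1 RPKM, and 5 to 7 with a library left out (5 without control replicate 1, and likewise for HDACi 4b replicate 1). The 15 members at 1 RPKM became 28 at 0.1 RPKM and 3 at 5 RPKM.

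Some log2 fold changes turned. *Kcnq1* was -0.022 without scaling, and with a library left out it ranged from -0.10 (without HDACi 4b replicate 2) to 0.19. Without control replicate 1, *Ube3a* was -0.010, *Phlda2* 0.14 and *Nap1l5* -0.77, and their other extremes were 0.20, -0.23 and 1.20, each without control replicate 2. Without control replicate 2, *Snrpn* was 0.50, *Grb10* 0.0052, *Commd1* -0.14 and *Inpp5f* 0.22, and their other extremes were -1.47, -0.33, 0.62 and -0.65, each without control replicate 1. Without HDACi 4b replicate 1, *Phlda2* was 0.025 and *Meg3* -0.91, and *Meg3* was 2.06 without HDACi 4b replicate 2. The cause was not tested.

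Whether samples with the same number share more than that number is not given in the labels. The correlation of their deviations was 0.045 over the genes tested, which cannot show whether they shared a day or batch. With the replicate block 0 genes were called. Its unadjusted limma p was under 0.05 for 164 genes in the higher and 166 in the lower direction. For *Nnat* this limma p was 0.0041, against 0.048 without the block and 0.19 with limma's robust estimation. In control replicate 1 against HDACi 4b replicate 2 alone, added after seeing the data, the median was 0.09 and the log2 differences of *Nnat*, *Snrpn*, *Nap1l5* and *Meg3* were -0.31, 0.76, 1.37 and -0.99. Control replicate 1 held more transcripts of microglia and macrophages than HDACi 4b replicate 2 did.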

Other observations

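*Gnas*, the imprinted gene for the stimulatory G protein subunit, had 2 and 3 reads after DMSO and 1 in each library after HDACi 4b, and its antisense transcript *Nespas* had 0 in each control and 2 and 1 after HDACi 4b. The spans of *Gnas* and *Nespas* overlap on opposite strands, and how such reads were counted is not given. These counts therefore need not give the level of either transcript. *Cd81*, a membrane protein gene of the *Kcnq1* cluster, was at 2.19 and 1.60 RPKM after DMSO and 6.74 and 1.04 RPKM after HDACi 4b, the same high library as for *Meg3*. *Smoc1*, whose imprint rests on histone methylation, had 1 and 38 reads after DMSO and 3 and 10 after HDACi 4b, the same high library as for *Nnat*. *Jade1*, of the same group of genes, had 2 and 4 reads after DMSO and 14 and 4 after HDACi 4b. Its high library was HDACi 4b replicate 1.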
